A study of Rattus norvegicus with 8 samples.

Results

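The 5 genes described here brake the signals that induce them, and were followed through a rat stroke experiment: the MAP kinase phosphatase genes Dusp6, Dusp1 and Dusp5, the salt-inducible kinase gene Sik1 and the cAMP-responsive modulator gene Crem. Their probe sets were taken as all rows of the array table whose platform annotation gave 1 of these 5 symbols and no other. The 5 are among 10412 genes on the array with a symbol of their own, and the rule found 11 of 15923 probe sets: 3 for Dusp6, 2 for Dusp1, 1 for Dusp5, 2 for Sik1 and 3 for Crem. Of the 11, 8 passed a signal filter and were tested, and 3 stayed below it.

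RNA came from a piece of right-hemisphere brain of male Wistar rats, 7 weeks old, killed 2 h after surgery. The surgery was either a 90 min blockage of the right middle cerebral artery followed by reperfusion (MCAO, a transient focal stroke), or a sham operation. Before it the rats had received injections for 5 days of candesartan, which blocks the angiotensin AT1 receptor, at 0.1 mg/kg, or of the vehicle, 0.9% saline. The 4 groups were MCAO candesartan, sham candesartan, MCAO vehicle and sham vehicle, with 2 Affymetrix RAE 230A arrays in each, and each array carried the pooled RNA of 2 rats. No group was untouched by injection or surgery. For the array MCAO candesartan 2 the treatment text named no pretreatment, and its group was taken from its description. The tissue was bulk brain, so a transcript level averages over cell types, and fewer cells of a type and less RNA per cell cannot be told apart. With 2 pools in a group, p-values measure the spread between these pools and not between single rats.

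MAP kinase phosphatases are switched on by the very kinase pathways they shut off. Dusp6 protein removes phosphate from ERK in the cytoplasm, Dusp5 protein does so in the nucleus, and Dusp1 protein is a nuclear phosphatase of the stress kinases JNK and p38 as well as ERK. Sik1 and Crem close a loop on the cAMP side: Sik1 is a kinase of the AMPK family that keeps the CREB coactivators of the Crtc family out of the nucleus, and Crem encodes activators and, from an internal promoter, the repressor ICER. In neurons, genes of this kind are known to be switched on by activity.

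The promoter windows below, 250 bases before to 50 after an annotated start site, are RefSeq sequences of build GRCr8. They are shown because cAMP response elements are the textbook route to several of them. All 5 genes matched, Crem with 3 windows for 3 start sites. Capitals mark every match, on either strand, to the full cAMP response element TGACGTCA, the short element TGACG inside it, or the serum response element core known as the CArG box. The AP-1 motif TGANTCA and the TATA box TATAAA were searched too and had 0 matches in these windows.
Dusp6, chr7:35979354-35979653, plus strand: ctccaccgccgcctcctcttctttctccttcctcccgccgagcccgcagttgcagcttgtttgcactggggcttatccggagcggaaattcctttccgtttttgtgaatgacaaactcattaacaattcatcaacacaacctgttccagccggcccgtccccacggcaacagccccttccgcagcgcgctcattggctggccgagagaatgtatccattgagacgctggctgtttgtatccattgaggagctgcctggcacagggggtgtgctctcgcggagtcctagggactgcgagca
Dusp1, chr10:17184603-17184902, plus strand: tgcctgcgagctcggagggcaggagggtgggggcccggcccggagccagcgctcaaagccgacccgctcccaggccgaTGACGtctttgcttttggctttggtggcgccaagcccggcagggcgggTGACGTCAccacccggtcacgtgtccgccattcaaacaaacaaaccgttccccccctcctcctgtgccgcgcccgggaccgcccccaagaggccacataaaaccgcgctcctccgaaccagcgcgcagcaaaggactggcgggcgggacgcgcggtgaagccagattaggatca
Dusp5, chr1:262543524-262543823, plus strand: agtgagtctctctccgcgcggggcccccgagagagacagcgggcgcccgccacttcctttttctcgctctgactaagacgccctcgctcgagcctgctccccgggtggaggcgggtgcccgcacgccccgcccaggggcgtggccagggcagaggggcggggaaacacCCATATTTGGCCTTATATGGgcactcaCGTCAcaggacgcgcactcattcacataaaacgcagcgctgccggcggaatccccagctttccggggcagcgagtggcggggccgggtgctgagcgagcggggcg
Sik1, chr20:9958597-9958896, minus strand: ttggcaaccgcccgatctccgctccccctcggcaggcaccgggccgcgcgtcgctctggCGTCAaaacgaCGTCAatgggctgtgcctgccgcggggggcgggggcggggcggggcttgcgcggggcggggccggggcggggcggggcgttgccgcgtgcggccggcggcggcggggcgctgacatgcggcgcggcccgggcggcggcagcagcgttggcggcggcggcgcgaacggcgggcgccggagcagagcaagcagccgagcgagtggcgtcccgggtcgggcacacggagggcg
Crem, window 3, chr17:58985240-58985539, plus strand: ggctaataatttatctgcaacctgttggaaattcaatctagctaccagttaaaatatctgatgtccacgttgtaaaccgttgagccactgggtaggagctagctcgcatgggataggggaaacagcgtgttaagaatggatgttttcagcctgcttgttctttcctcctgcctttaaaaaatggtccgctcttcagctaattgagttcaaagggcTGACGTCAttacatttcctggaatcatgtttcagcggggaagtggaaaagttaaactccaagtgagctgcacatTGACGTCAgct

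The full element stood once in the Dusp1 window, beginning 124 bases before the start site, and at 2 places in Crem window 3, beginning 35 bases before and 39 bases after it. Crem window 2 (chr17:58984547-58984846, not printed) held it once, 56 bases before its start site. Each full element also contains the short element on both strands. The Dusp1 window had 1 short element outside the full element, the Dusp5 window 1, the Sik1 window 2 and Crem window 1 (chr17:58933816-58934115, not printed) 2. Dusp5 had 2 adjacent CArG boxes, beginning 82 and 72 bases before the start site. The Dusp6 window contained 0 matches to any of the 5 motifs, which says only that these letters are not in this window. Of 33469 windows of the same length, 1.83% held the full element, 21.2% the short element, 1.64% a CArG box, 7.33% the AP-1 motif and 14.2% the TATA box. A match is a string of letters and was not tested for binding.

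**Figure D1:**
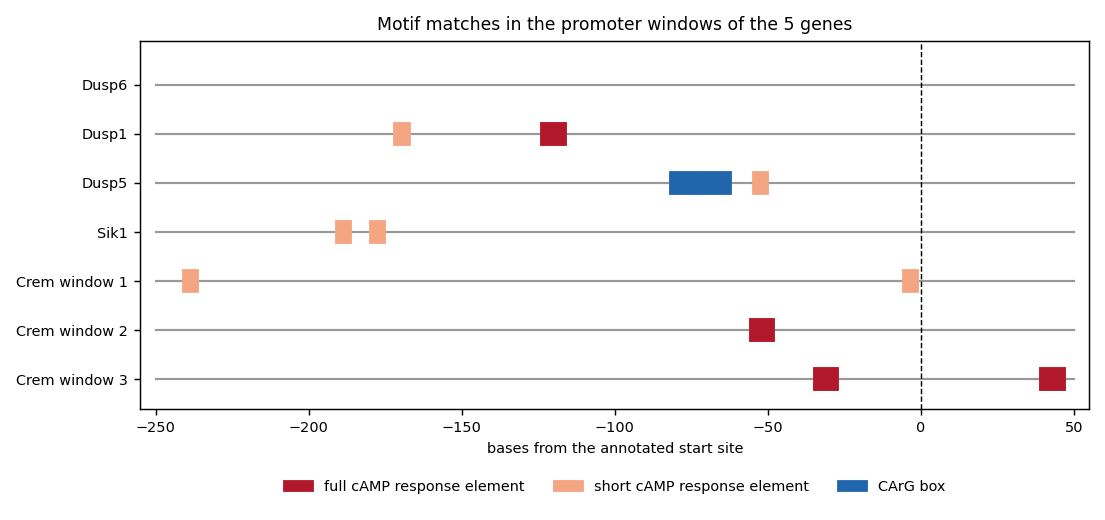
Motif matches along the 7 promoter windows of the 5 genes; the x axis is distance in bases from the annotated start site (dashed line), and boxes are matches to the full or the short cAMP response element or the CArG box. Full elements lie in the Dusp1 window and in 2 of the 3 Crem windows, 2 CArG boxes lie in the Dusp5 window, and the Dusp6 line is empty.

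Dusp6 was the member whose rise after MCAO passed the test. Its probe set 1387024_at read 6531.6 and 7368.3 in MCAO candesartan, against 4064.2 and 3157.9 in sham candesartan. In vehicle rats it read 6030.8 and 6045.8 in MCAO vehicle, against 4600.5 and 4049.2 in sham vehicle. All 4 MCAO arrays thus lay above all 4 sham arrays. Signals here are the linear values of the table, and differences below are on the scale of log2(signal + 370), where the offset tempers dim probe sets and understates their change. On that scale MCAO exceeded sham by 0.89 ± 0.14 (SE) in candesartan rats, an adjusted p = 0.0385 by limma, and by 0.45 ± 0.14 in vehicle rats, which did not pass (adjusted p = 0.456). Averaged over both pretreatments the rise was 0.67 ± 0.10 (adjusted p = 0.0125), the 29th smallest p of 10310 tested probe sets.

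The 4 group levels of 1387024_at ran from 6950 ± 592 in MCAO candesartan (mean ± SD, n = 2 arrays in each group) through 6038.3 ± 10.6 in MCAO vehicle and 4324.9 ± 390 in sham vehicle to 3611.1 ± 641 in sham candesartan. The MCAO candesartan arrays both lay above the MCAO vehicle arrays, but that difference of 0.19 ± 0.14 did not pass (adjusted p = 0.593). The sham groups, at the bottom of the order, overlapped.

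The other Dusp6 probe sets went the same way. Probe set 1377064_at read 2034.6 and 2649.9 in MCAO candesartan against 640.4 and 808.3 in sham candesartan, and 1303.2 and 1189.8 in MCAO vehicle against 1037.8 and 505.4 in sham vehicle. Again every MCAO array was above every sham array, and the candesartan pair was the widest apart. The difference was 1.30 ± 0.23 in candesartan rats (adjusted p = 0.0613) and 0.54 ± 0.23 in vehicle rats (adjusted p = 0.668), neither passing, and 0.92 ± 0.16 over both, which passed (adjusted p = 0.0403). This probe set reached the signal filter on 5 of 8 arrays, 4 of them MCAO arrays, so its entry into the test already leaned on the group where it was high.

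Probe set 1382778_at read 2807.9 and 3715.6 in MCAO candesartan against 1518.2 and 1449.7 in sham candesartan, and 3989.2 and 2734.5 in MCAO vehicle against 2495.5 and 1862.6 in sham vehicle. Here too the MCAO and sham arrays did not overlap, although the highest single reading belonged to a vehicle rat pool. The difference over both pretreatments was 0.75 ± 0.14 and missed the threshold (adjusted p = 0.0514). It was 0.96 ± 0.19 in candesartan rats (adjusted p = 0.104) and 0.54 ± 0.19 in vehicle rats (adjusted p = 0.554).

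**Figure D2:**
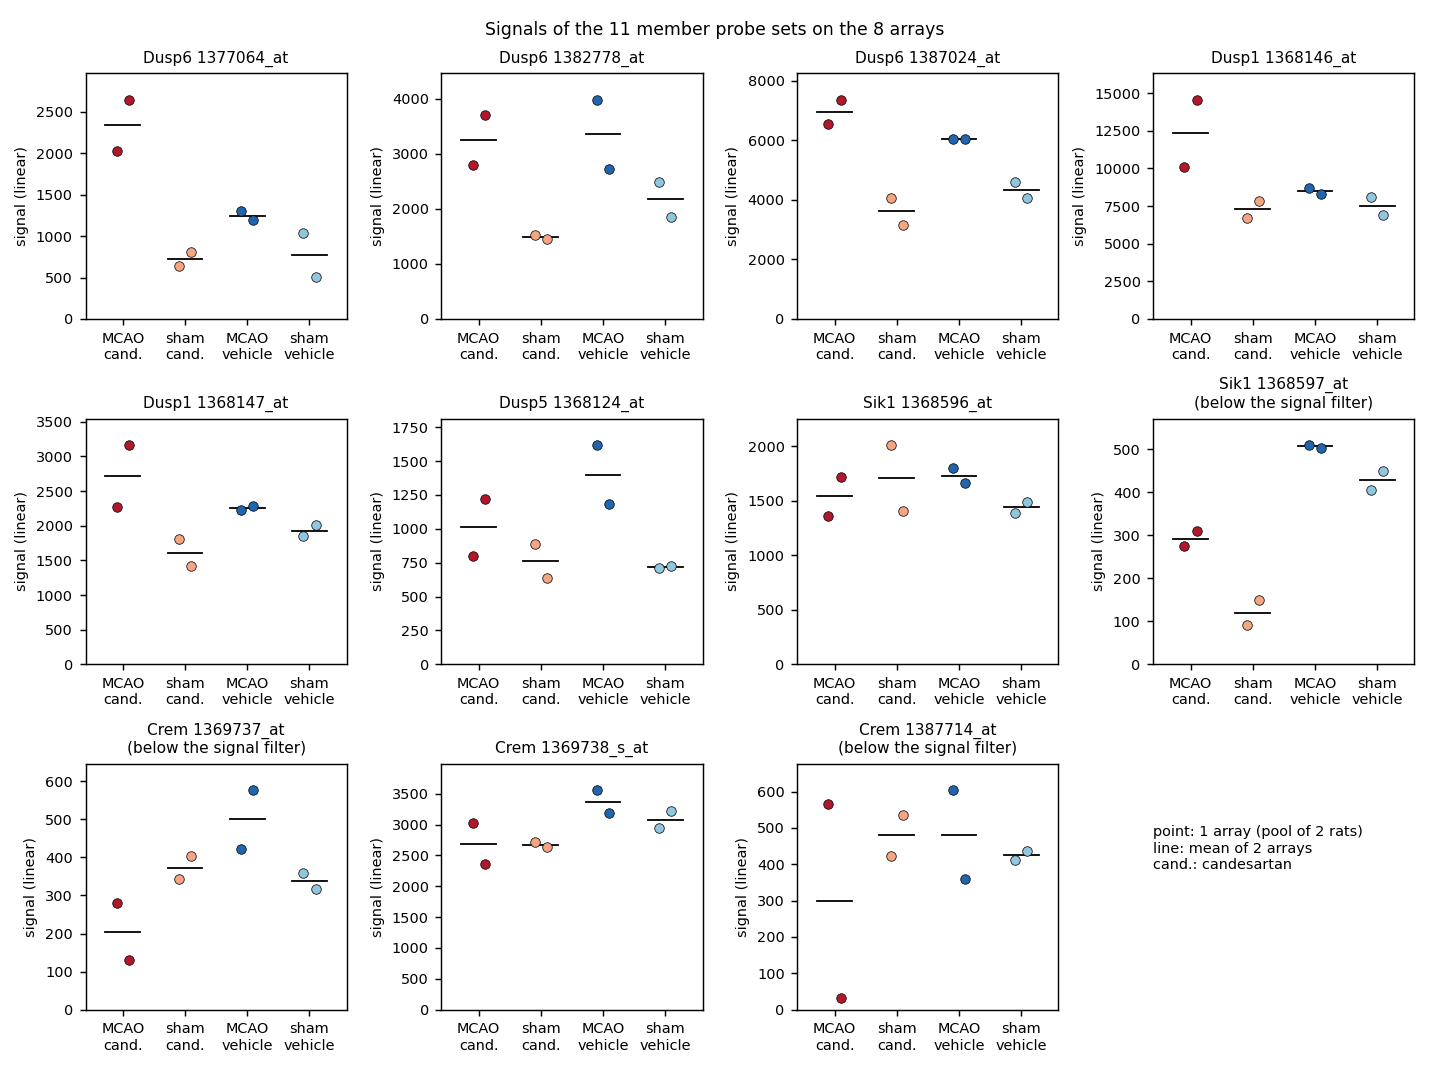
Linear signal of each of the 11 member probe sets (y axis, from 0) in the 4 groups (x axis); points are the 2 arrays of a group and lines their means. In the 3 Dusp6 and both Dusp1 panels the 4 MCAO points all lie above the 4 sham points; the Sik1 and Crem panels show no such split.

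Counted over members, 2 of the 8 tested probe sets were called higher over both pretreatments, both of them Dusp6, where 0.417% of all tested probe sets were called and every call was a rise. Of these, 1377064_at had entered the test mostly through its MCAO arrays, so the count is a description and supports nothing about the members together. In candesartan rats 1 of 8 was called higher, against 0.213% of all tested probe sets called in that direction. In vehicle rats 0 of 8 were called by limma, where 0.262% of all were called, and 4 members lay below an unadjusted p of 0.05, as did 7.04% of all. The MCAO and sham arrays of both pretreatments were fully separated, MCAO higher, for 5 of the 8, and 2.83% of all tested probe sets had this pattern. Taken within one pretreatment that pattern is common: it held for 5 members in candesartan rats, where the background was 16.9%, and for 7 in vehicle rats, where it was 24.6%. The separation counts all include Dusp6 1377064_at. Those in vehicle rats, of separated members and of members below an unadjusted p of 0.05, also include Dusp5. Dusp5 passed the filter on MCAO arrays only, so these counts too are descriptions and support nothing about the members together.

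Dusp1 stood higher after MCAO on every array, but its differences did not pass the test. Probe set 1368146_at read 10116.4 and 14577.6 in MCAO candesartan against 6722.7 and 7830.9 in sham candesartan. In vehicle rats the same probe set read 8682.8 and 8312.9 in MCAO vehicle against 8126.3 and 6924.1 in sham vehicle. The MCAO arrays lay above the sham arrays throughout, by a wide gap with candesartan and a narrow one with vehicle. The differences were 0.72 ± 0.17 in candesartan rats (adjusted p = 0.178), 0.17 ± 0.17 in vehicle rats (adjusted p = 0.901) and 0.44 ± 0.12 over both (adjusted p = 0.198).

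The second Dusp1 probe set, 1368147_at, read 2272.5 and 3166.8 in MCAO candesartan against 1803.6 and 1420.7 in sham candesartan, and 2220.6 and 2286.6 in MCAO vehicle against 1848.6 and 2009.1 in sham vehicle. It had the same separation of MCAO from sham arrays. Its differences were 0.63 ± 0.17 with candesartan (adjusted p = 0.218) and 0.19 ± 0.17 with vehicle (adjusted p = 0.889). The 95% interval of the vehicle difference ran from -0.18 to 0.56, so a rise of the size fitted over both pretreatments, 0.41, lay within it.

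Dusp5, the nuclear ERK phosphatase gene, had its largest single reading and its highest group mean in MCAO vehicle. Its only probe set, 1368124_at, read 802.3 and 1219.7 in MCAO candesartan against 889.8 and 634.4 in sham candesartan, which overlapped. It read 1618.7 and 1180.3 in MCAO vehicle against 713 and 723.4 in sham vehicle, which did not overlap. The differences were 0.28 ± 0.22 (adjusted p = 0.625) with candesartan and 0.69 ± 0.22 with vehicle (adjusted p = 0.476). Only 3 arrays, all MCAO, exceeded the signal filter, so this gene also entered the test through its high groups.

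**Figure D3:**
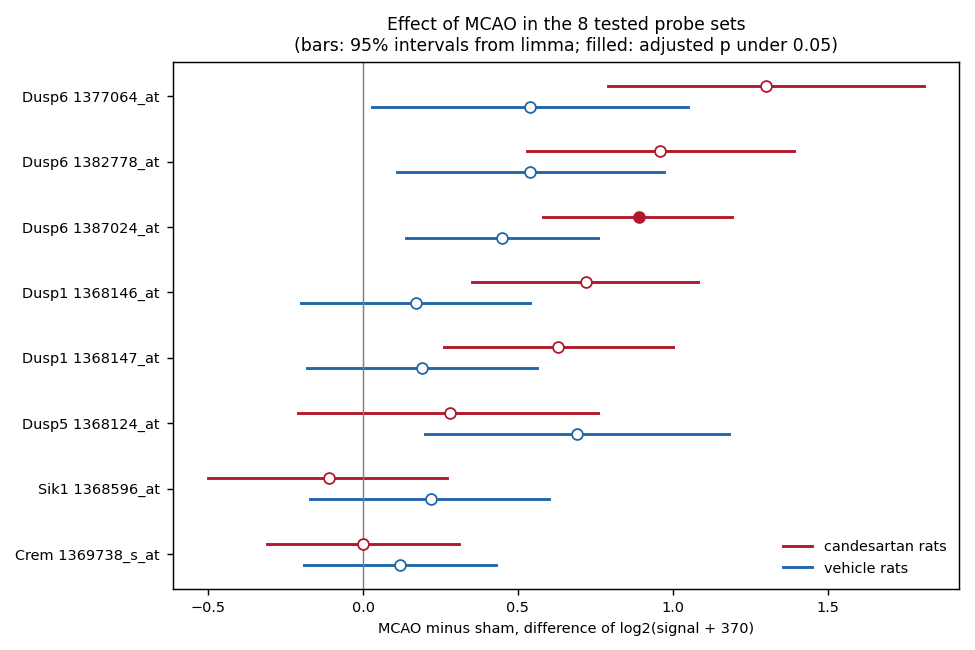
Difference between MCAO and sham on the log2(signal + 370) scale (x axis) for the 8 tested probe sets (rows), with candesartan above vehicle in each row; points are limma estimates, bars 95% intervals, and a filled point has an adjusted p under 0.05. The filled point is Dusp6 1387024_at with candesartan; the Sik1 and Crem intervals cross 0 in both kinds of rat.

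Sik1 had no call in any contrast. Probe set 1368596_at read 1362.7 and 1717.6 in MCAO candesartan against 2011.6 and 1405.2 in sham candesartan, and 1796.6 and 1664.7 in MCAO vehicle against 1388.7 and 1487.2 in sham vehicle. The candesartan groups overlapped, and in vehicle rats the MCAO arrays were above the sham arrays. Over both pretreatments the difference was 0.05 ± 0.12 (adjusted p = 0.923), with a 95% interval from -0.22 to 0.32.

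The second Sik1 probe set, 1368597_at, was below the signal filter on all 8 arrays and separated the groups by drug as well as by surgery. It read 273.9 and 308.9 in MCAO candesartan, 91.5 and 149 in sham candesartan, 509.9 and 502.9 in MCAO vehicle, and 406 and 448.9 in sham vehicle. All 4 candesartan arrays lay below all 4 vehicle arrays, and within each pretreatment the MCAO arrays lay above the sham arrays. Among tested probe sets the separation by surgery held for 16.9% in candesartan rats and 24.6% in vehicle rats. How many probe sets were separated by drug was not counted, so these patterns are descriptions. When every probe set was tested without the filter, MCAO minus sham was 0.43 ± 0.15 in candesartan rats (adjusted p = 0.372), 0.14 ± 0.15 in vehicle rats (adjusted p = 0.984) and 0.29 ± 0.11 over both (adjusted p = 0.528), none passing. In the same fit candesartan minus vehicle after sham was -0.70 ± 0.15 (adjusted p = 0.830) and after MCAO -0.41 ± 0.15 (adjusted p = 0.407), neither passing. The brighter Sik1 probe set had 0.19 after sham and -0.14 after MCAO, so the probe sets of this gene disagreed.

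Crem was measured by 1 bright and 2 dim probe sets. The bright one, 1369738_s_at, whose suffix marks probes shared by several transcripts, read 3021.9 and 2354.9 in MCAO candesartan against 2710 and 2638.5 in sham candesartan, and 3555.3 and 3188.9 in MCAO vehicle against 2940 and 3219.4 in sham vehicle. MCAO and sham overlapped with either pretreatment. The difference over both was 0.06 ± 0.10 (adjusted p = 0.890), with a 95% interval from -0.16 to 0.28, which lies below the 0.67 fitted for Dusp6 1387024_at. The files do not say which Crem transcripts, ICER included, each probe set reads.

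Both dim Crem probe sets stayed below the filter on all 8 arrays. Probe set 1369737_at read 280.4 and 129.5 in MCAO candesartan against 342.4 and 403.9 in sham candesartan, and 423.4 and 576.4 in MCAO vehicle against 358.4 and 317.4 in sham vehicle. Its MCAO arrays were thus the lower ones with candesartan and the higher ones with vehicle, but the difference between these effects, -0.67 ± 0.26 without the filter, did not pass (adjusted p = 0.612). Probe set 1387714_at read 565.4 and 33.5 in MCAO candesartan against 423.4 and 534.9 in sham candesartan, and 603.4 and 359.9 in MCAO vehicle against 413 and 436.9 in sham vehicle. Its MCAO candesartan pools were far apart, 1 of them below every other array.

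The drug comparison asked whether candesartan altered these genes. After MCAO, 0 of 8 members were called between candesartan and vehicle by limma, where 0.0679% of all tested probe sets were called. Below an unadjusted p of 0.05 lay 2 members and 13.1% of all tested probe sets. Those 2 were Dusp6 1377064_at, higher by 0.74 ± 0.23 with candesartan (adjusted p = 0.264), and Dusp1 1368146_at, higher by 0.50 ± 0.17 (adjusted p = 0.275). The other Dusp6 and Dusp1 probe sets gave -0.03 to 0.22. Dusp5 gave -0.36 ± 0.22 (adjusted p = 0.505) and Crem 1369738_s_at -0.30 ± 0.14 (adjusted p = 0.398).

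After sham surgery 0 of 8 members and 0.0% of all tested probe sets were called by limma, with 1 member and 404 probe sets below an unadjusted p of 0.05. That member was Dusp6 1382778_at, at -0.45 ± 0.19 (adjusted p = 0.9997). All 3 Dusp6 estimates were below 0 there, from -0.45 to -0.02.

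The difference between the MCAO effects in candesartan and vehicle rats was above 0 for every Dusp6 and Dusp1 probe set, from 0.42 to 0.76, and below 0 for Dusp5, Sik1 1368596_at and Crem 1369738_s_at. By limma's interaction test 0 of 8 were called, where 0.0194% of all tested probe sets were called, and 2 members lay below an unadjusted p of 0.05, as did 8.87% of all. The adjusted p lay between 0.551 and 0.656 for Dusp6 and Dusp1. The call of Dusp6 1387024_at in candesartan rats and its absence in vehicle rats is therefore not a tested difference between them.

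The array MCAO candesartan 2 bore on these values. The mean correlation of its log2 signals with the other arrays was 0.951, against 0.970 to 0.973 for the other 7. In that pool all Dusp6, Dusp1 and Dusp5 readings were above those of MCAO candesartan 1, and all 3 Crem readings below. Without it, Dusp6 1387024_at kept its call over both pretreatments, at 0.63 (adjusted p = 0.0271), and lost it in candesartan rats, at 0.80 (adjusted p = 0.123). Dusp1 1368146_at then gave 0.46 in candesartan rats (adjusted p = 0.301). Without MCAO candesartan 1 instead, MCAO candesartan 2 stood alone for its group, with its spread taken from the other groups. Dusp1 1368146_at then gave 0.97 in candesartan rats, 0.75 between candesartan and vehicle after MCAO and 0.80 for the interaction. Calls from that fit are not read as results about these genes, since they multiplied over all probe sets. Without MCAO candesartan 1, 835 of all probe sets were called in candesartan rats, against 25 with it. The candesartan call of Dusp6 1387024_at was kept only in that omission and was lost when any other array was left out, with an adjusted p from 0.0761 to 0.225. Its call over both pretreatments was lost without sham candesartan 2, MCAO vehicle 1, MCAO vehicle 2 or sham vehicle 2, with an adjusted p from 0.0533 to 0.0957. For Dusp6 1377064_at that call was kept without MCAO candesartan 1 or sham vehicle 1 and lost in the other 6 omissions, with an adjusted p from 0.0808 to 0.232.

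The Dusp6 and Dusp1 probe sets ran together over the arrays. Across the 8 arrays the Pearson correlation of log2(signal + 370) was 0.78 to 0.90 among the 3 Dusp6 probe sets, 0.81 between those of Dusp1 and 0.71 to 0.94 between Dusp6 and Dusp1. These arrays share the groups, so the values describe the pattern and carry no test. Sik1 1368596_at had 0.18 and Crem 1369738_s_at 0.07 with Dusp6 1387024_at. Among 6443 genes with 1 symbol and 1 tested probe set, Nr4a1 (0.976), an activity-induced nuclear receptor gene, Eif1b (0.973), related to a translation initiation factor, and Egr2 (0.972), an activity-induced zinc finger factor, were most like Dusp6 1387024_at. Nr4a1 read 9053.6 and 12505.1 in MCAO candesartan against 3270.3 and 2078.6 in sham candesartan, and 7977.4 and 8323.9 in MCAO vehicle against 2975.9 and 2909.9 in sham vehicle. It has the order of Dusp6 with a wider swing.

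**Figure D4:**
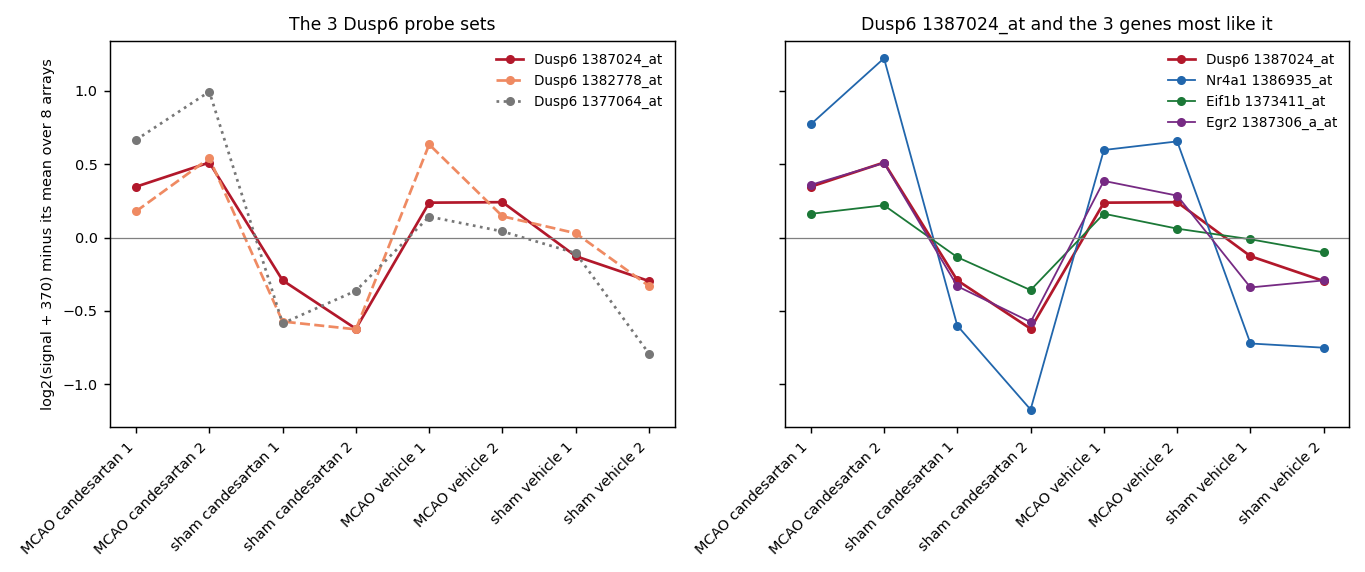
Profiles over the 8 arrays (x axis) of log2(signal + 370) minus its mean (y axis): the 3 Dusp6 probe sets on the left, and Dusp6 1387024_at with the 3 genes most correlated with it on the right; lines only join the points of a probe set. All profiles are higher on MCAO than on sham arrays, and Nr4a1 swings widest.

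The remaining neighbours were as follows. Dusp6 1377064_at was nearest to Adh5 (0.983), Enc1 (0.959) and Rfx1 (0.938), and Dusp6 1382778_at to Pinx1 (0.945), Eif1b (0.925) and Timm13 (0.915). Dusp1 1368146_at was nearest to Dynlrb1 (0.985), Ypel3 (0.975) and Rfx1 (0.974), and Dusp1 1368147_at to Klk6 (0.961), Plekhj1 (0.939) and Ubap2l (0.934). Dusp5 was nearest to Nup58 (0.945), Tp53inp2 (0.912) and Med9 (0.909). Sik1 1368596_at was nearest to Lims1 (0.954), Myrf (0.948) and LOC102550950 (0.923), and Crem 1369738_s_at to Cog2 (0.940), Xrn2 (0.939) and Leprotl1 (0.933). Dusp6 1387024_at and Dusp6 1382778_at had Eif1b in common. The other neighbours differed between probe sets of one gene.

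The surrounding pathway was read from lists of named genes over both pretreatments, beside a median of -0.01 for all tested probe sets. Of all tested probe sets 9.52% lay below an unadjusted p of 0.05 by limma in that contrast. Other Dusp genes had 8 tested probe sets, with 0 called by limma, 1 below an unadjusted p of 0.05 and a median of 0.12. The nearest to a call was Dusp14, a small dual-specificity phosphatase gene, which read 5626.8 and 5953.6 in MCAO candesartan against 3282.8 and 3866.2 in sham candesartan, and 5112.5 and 6076.8 in MCAO vehicle against 5188 and 4004.7 in sham vehicle. Its difference was 0.46 ± 0.11 (adjusted p = 0.127), the vehicle groups overlapping. Dusp2, a nuclear MAP kinase phosphatase gene, gave 0.24 ± 0.13 (adjusted p = 0.585).

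Among Sprouty, Spred and other brakes on ERK, 0 of 9 tested probe sets were called by limma, 1 lay below an unadjusted p of 0.05 and the median was 0.03. That 1 was Spry2, an inhibitor of receptor-to-Ras signalling, which read 2157.1 and 1245.2 in MCAO candesartan against 440.4 and 1327.2 in sham candesartan, and 2607.5 and 2287.1 in MCAO vehicle against 852.8 and 525.9 in sham vehicle. The candesartan groups overlapped and the vehicle groups did not. Its difference of 1.11 ± 0.23 exceeded those of the Dusp6 probe sets but had a wider error and did not pass (adjusted p = 0.0853). Ptprr, a tyrosine phosphatase gene of the ERK pathway, gave -0.14 ± 0.10 (adjusted p = 0.702).

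The lists of kinases, factors and related signalling genes around the members gave medians near 0. Of 24 MAP kinase cascade probe sets 0 were called by limma, 3 lay below an unadjusted p of 0.05 and the median was 0.01. The smallest p belonged to the transcription factor gene Srf, at 0.28 ± 0.08 (adjusted p = 0.249), and to the kinase gene Araf, at -0.46 ± 0.20 (adjusted p = 0.491). Of 33 probe sets for cAMP, PKA and CREB genes 0 were called by limma, 1 lay below an unadjusted p of 0.05 and the median was -0.01. The striatal phosphodiesterase gene Pde10a was nearest, at -0.49 ± 0.15 and -0.18 ± 0.09 in its leading probe sets (adjusted p = 0.286 and adjusted p = 0.567). Of 15 probe sets for Sik1 relatives, AMPK, HDAC and MEF2 genes 0 were called by limma, 1 lay below an unadjusted p of 0.05 and the median was 0.03. Sik3 gave -0.27 ± 0.10 (adjusted p = 0.431) and Sik2 0.20 ± 0.10 (adjusted p = 0.544).

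Genes that CREB and SRF are known to induce rose in part. Of 22 tested probe sets 10 were called higher and 0 lower, where 0.417% of all tested probe sets were called higher, and the median was 0.63. Many of these genes were already known to rise in these data when the list was written. Those called were Fos, Arc, Fosb, Nr4a1, Junb, Egr4, Egr1, Nr4a3, Egr2 and Ppp1r15a, from 2.76 ± 0.11 for Fos (adjusted p = 1.31e-06) to 0.67 ± 0.10 for Ppp1r15a (adjusted p = 0.0125). Dusp6 1387024_at, at 0.67, stood at the lower end of that range, and the Crem and Sik1 differences below all 10.

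**Figure D5:**
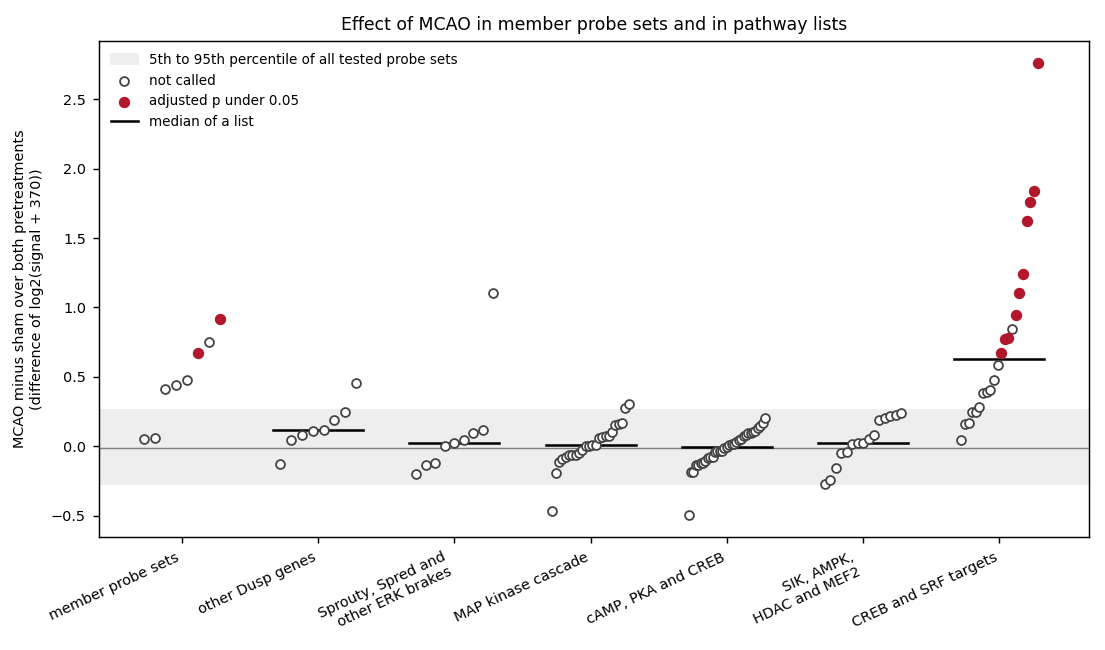
Difference between MCAO and sham over both pretreatments on the log2(signal + 370) scale (y axis) for each tested probe set of the 5 genes and of 6 pathway lists (x axis); bars are list medians, filled points have an adjusted p under 0.05, and the grey band spans the 5th to 95th percentile of all tested probe sets. Called points lie among the Dusp6 probe sets and the CREB and SRF targets.

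Of the cell type markers 0 were called over both pretreatments, but some differences were as large as those of Dusp1 and Dusp5. All 15 tested astrocyte probe sets, of 8 genes, were below 0 over both pretreatments (median -0.17, 0 called by limma, 5 below an unadjusted p of 0.05). All tested probe sets had a median of -0.01 there, with 9.52% below an unadjusted p of 0.05 by limma. Astrocyte sums were 194870 to 246280 in MCAO candesartan, 232560 to 245680 in sham candesartan, 206340 to 223420 in MCAO vehicle and 242840 to 252240 in sham vehicle. The 3 probe sets of Aqp4, an astrocyte water channel gene, gave -0.54 to -0.43. Of 10 neuron probe sets 8 were above 0 in candesartan rats (median 0.14) and 1 in vehicle rats (median -0.15), with 0 called by limma and, below an unadjusted p of 0.05, 3 in candesartan and 0 in vehicle rats. Of all tested probe sets 12.4% in candesartan and 7.04% in vehicle rats lay below that p, with medians of -0.03 and 0.01. Neuron sums were 228400 to 249760 in MCAO candesartan against 193740 to 196910 in sham candesartan, and 190790 to 197140 in MCAO vehicle against 191710 to 218300 in sham vehicle. Neuron sums were thus highest in MCAO candesartan. They weight bright probe sets most, here Snap25, with a maximum of 113989.2 against a median of 65416. For candesartan minus vehicle after MCAO 8 of the 10 neuron probe sets were above 0 (median 0.17, 0 called by limma). Both Dusp1 probe sets and 2 of the 3 Dusp6 probe sets also had their highest group mean in MCAO candesartan (1382778_at had it in MCAO vehicle). The part of the neuron markers in that was not tested. Of the oligodendrocyte, microglia and macrophage, endothelial and blood lists, 7 of 11, 1 of 7, 3 of 6 and 0 of 2 tested probe sets were above 0 over both pretreatments, with 0 called by limma and 0, 1, 0 and 1 below an unadjusted p of 0.05. Oligodendrocyte sums were 443000 to 589690 in MCAO candesartan against 414590 to 451570 in sham candesartan. In vehicle rats they were 409920 to 454590 in MCAO vehicle against 404760 to 414960 in sham vehicle. Sums weight bright probe sets most, here those of Mbp, with maxima of 231193.7 and 160510.8 against medians of 110020 and 99257. For MCAO in candesartan rats 5 of the 11 oligodendrocyte probe sets were above 0 (median -0.06). For candesartan minus vehicle after MCAO 3 were above 0 (median -0.2). Of these differences after MCAO 5 lay below an unadjusted p of 0.05, as did 13.1% of all tested probe sets, and 0 were called by limma. Microglia and macrophage sums were 11714 to 12170 in MCAO candesartan against 13496 to 16522 in sham candesartan, and 13274 to 13636 in MCAO vehicle against 13854 to 14169 in sham vehicle. Endothelial sums were 15979 to 16850 in MCAO candesartan against 15008 to 16242 in sham candesartan, and 14446 to 14860 in MCAO vehicle against 14049 to 15262 in sham vehicle. Blood sums were 80268 to 82409 in MCAO candesartan against 94604 to 110400 in sham candesartan, and 89864 to 96584 in MCAO vehicle against 93531 to 103830 in sham vehicle. The blood list, of 2 tested probe sets, had a median of -0.56 for MCAO in candesartan rats, with both below an unadjusted p of 0.05, and of -0.55 for candesartan minus vehicle after MCAO. Blood, microglia and macrophage sums were thus lowest in MCAO candesartan, their part in the members' values was not tested, and no marker was listed at 0.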

How the data were processed

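Total RNA was measured on 8 Affymetrix RAE 230A arrays, each a pool of 2 rats. The authors deposited 1 table of 15923 rows holding linear signal intensities. Per the submitters' processing notes GCOS was used; the sources used here do not give its version or settings. The arrays' 2%-trimmed means differed by at most 0.000426%, so no further scaling was applied. The small number of arrays limits the precision. Symbols came from the platform annotation (12789 probe sets with 1 symbol, 312 with several, 2771 without, controls left out of the last), of which 12754 matched RefSeq by gene ID and 0 changed.

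After 57 control rows were left out, an offset of 370 (20th percentile) was added before log2, and probe sets above 916 (40th percentile) on at least 2 arrays were tested, 10310 in all. limma 3.58.1 in R 4.3.3 fitted the 4 group means (lmFit; eBayes allowing prior variance to follow mean level; 4 degrees of freedom left over), and the p-values of 6 contrasts were adjusted by Benjamini-Hochberg over all tested probe sets, with a call at an adjusted p under 0.05. The fit was tried on simulated data with known changes. A 1.5-fold change was called in 20.9% of cases for MCAO in either pretreatment and in 62.7% over both. For candesartan minus vehicle it was called in 11.9% after MCAO and 31.3% after sham, and for the interaction in 1.49%. A 4-fold change was called in 80.3% to 100%. Lack of a call thus does not show that a 1.5-fold change is absent. The members and lists were chosen with earlier results of these data known. Named genes were all member probe sets, from each list those called in a contrast or else the 2 with the smallest p for MCAO over both pretreatments, and the 3 genes most correlated with each tested member. Alternatives covered scaling, offset, filter, variance model, groups fitted, pool number as a block and omission of single arrays. Same-numbered pools of different groups deviated with correlations from -0.0951 to 0.137, so the numbers were not taken to pair the pools.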

Additional observations from a re-analysis of the deposited data

How the results depend on the processing

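Of the members' results under the alternatives, 636 kept their direction and their side of the threshold, 25 lost a call, 12 gained one and 19 turned in sign. Over all tested probe sets, the calls for MCAO in vehicle rats numbered 27, 12 without a filter and 93 with only the groups compared, and 7 to 43 when 1 array was left out. In candesartan rats they numbered 25, 16 without a filter, 11 with only the groups compared, and 5 to 835 when 1 array was left out. Over both pretreatments they numbered 43, and 21 to 389 when 1 array was left out. Between candesartan and vehicle after MCAO they numbered 7, 2 with the offset at the 10th percentile, 4 without the variance trend, 4 with the replicate block, 0 without a filter, 0 with only the groups compared, and 0 to 986 when 1 array was left out; after sham they stayed at 0. For the interaction they numbered 2, 0 without a filter, 0 with the stricter filter, 0 with the replicate block, and 0 to 296 when 1 array was left out. The highest count in each of these ranges came without MCAO candesartan 1. The pool numbers only name the pools; with them as a replicate block the calls for MCAO were 22 in candesartan rats, 22 in vehicle rats and 45 over both. For Dusp6 1387024_at the candesartan call was lost without a filter (adjusted p = 0.0812), without the variance trend (adjusted p = 0.0894) and with only the groups compared (adjusted p = 0.172) by limma. For Dusp6 1377064_at the call over both pretreatments was lost by limma with the offset at the 10th percentile (adjusted p = 0.0533), no filter (adjusted p = 0.136), the stricter filter (adjusted p = 0.0528), no variance trend (adjusted p = 0.0516) and the replicate block (adjusted p = 0.0611), and Dusp6 1382778_at gained it under the stricter filter (adjusted p = 0.0482). Under quantile normalization the sign turned for Dusp5 (candesartan minus vehicle after sham, -0.02), Dusp6 1382778_at (candesartan minus vehicle after MCAO, 0.00) and Crem 1369738_s_at (MCAO in candesartan rats, 0.02). Signs also turned when 1 array was left out. For candesartan minus vehicle after sham the ranges were -0.16 to 0.06 for Dusp1 1368146_at, -0.12 to 0.21 for Dusp5, -0.37 to 0.32 for Dusp6 1377064_at and -0.03 to 0.40 for Sik1 1368596_at, and after MCAO -0.27 to 0.21 for Dusp6 1382778_at. For MCAO they were -0.32 to 0.10 in candesartan rats and -0.05 to 0.16 over both for Sik1 1368596_at, and -0.16 to 0.16 and -0.02 to 0.14 for Crem 1369738_s_at, whose interaction ran from -0.28 to 0.04. The cause of these shifts was not tested. The stricter filter left Dusp5 and Sik1 1368596_at untested, and fitting only the groups compared gives nothing for contrasts that use all 4 groups. Where an omission left 1 array in a group, that array was assumed to vary like the other groups.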
